A study of Mus musculus with 15 samples.

Results

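The genes described here are the activity-regulated transcription factor genes of the Fos, Jun and Egr families, which were taken by symbol: Fos, Fosb, Fosl2, Jun, Junb, Jund, Egr1, Egr2, Egr3 and Egr4. All 10 were present among the 15569 genes of the table, and all 10 passed the filter on low values. RNA sequencing was done on striatum, a forebrain region for movement and reward learning, from C57Bl/6J pups aged 14 days whose mothers had been exposed to aerosols while pregnant. The libraries comprise 3 of paraquat, a redox-cycling herbicide, 4 of titanium dioxide (TiO2) nanoparticles, 4 of the mixture of both, and 4 of pups labelled untreated, called control here. All groups share strain, age and tissue, and the labels used here give no dose, sex, litter or dam. The labels do not say that the libraries of a group came from separate animals, so each p-value reflects the spread among libraries, part or all of which may be technical.

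Values are the deposited normalised read counts, in which the read count of a gene is already divided by a size factor for the library. The depth behind them was 8690925 to 14207513 reads per library, the deepest being paraquat library 3. Fos was the most thinly covered member, with 19 to 97 reads per library, and Egr1 the most deeply covered, with 2294 to 8356. Markers of striatal projection neurons were present at high levels, at 734, 799, 776 and 844 per kb of exon for the dopamine receptor gene Drd1 in paraquat, TiO2, mixture and control. The cortical glutamatergic marker Slc17a7 had 250, 148, 264 and 77.8 per kb, and its paraquat difference had a limma adjusted p of 0.121. Another cortical marker, Lamp5, had 529, 554, 547 and 564 per kb. Of 11 cortical markers tested, 9 had a positive log2 fold change after each exposure.

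On GRCm38, 1-based, the annotated genes lie at chr12:85473890-85477273 (Fos, plus strand), chr7:19302696-19310051 (Fosb, minus), chr5:32135801-32157842 (Fosl2, plus), chr4:95049034-95052222 (Jun, minus), chr8:84974484-84978718 (Junb, minus) and chr8:70698949-70700616 (Jund, plus). The Egr genes lie at chr18:34859823-34864984 (Egr1, plus), chr10:67535475-67542188 (Egr2, plus), chr14:70077203-70082614 (Egr3, plus) and chr6:85511121-85513589 (Egr4, minus). All 10 are protein coding.

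Fos and Jun proteins pair through leucine zippers to form the AP-1 transcription factor, and Egr proteins bind GC-rich DNA through zinc fingers. Most of these genes are immediate early genes: calcium and kinase signals in an active neuron switch them on without new protein synthesis, through the serum response factor SRF with its ELK partners and through CREB. In the striatum, dopamine and glutamate inputs are the best known triggers, and Fos and Egr1 transcripts are widely used as marks of recent activity. JunD is the Jun protein with the steadiest expression, and the FosB gene gives the truncated, long-lived ΔFosB that builds up in striatal neurons with repeated stimulation.

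The promoter sequences searched, from RefSeq entries on GRCm38.p6, were those of 8 members, Fos, Fosb, Fosl2, Jun, Junb, Jund, Egr2 and Egr4. The 250 bases before the start are shown for 3 members that rose after an exposure, Fos, Egr2 and Egr4, and for Jun, which did not pass the test after any. Capitals mark matches to the core of the cAMP response element (TGACG, or CGTCA on the other strand) and to the CArG box, the centre of the serum response element.
Fos, chr12:85473640-85473889, plus strand: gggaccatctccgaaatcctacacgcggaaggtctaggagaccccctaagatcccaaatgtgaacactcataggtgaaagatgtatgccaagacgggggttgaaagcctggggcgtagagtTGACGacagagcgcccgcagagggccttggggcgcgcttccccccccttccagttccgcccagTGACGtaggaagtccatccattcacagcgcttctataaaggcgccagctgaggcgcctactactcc
Egr2, chr10:67537619-67537868, plus strand: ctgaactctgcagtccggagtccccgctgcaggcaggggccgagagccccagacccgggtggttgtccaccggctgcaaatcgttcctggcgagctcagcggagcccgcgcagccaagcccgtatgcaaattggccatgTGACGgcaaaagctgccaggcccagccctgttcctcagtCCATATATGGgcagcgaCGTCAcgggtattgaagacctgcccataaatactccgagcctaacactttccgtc
Egr4, chr6:85513590-85513839, minus strand: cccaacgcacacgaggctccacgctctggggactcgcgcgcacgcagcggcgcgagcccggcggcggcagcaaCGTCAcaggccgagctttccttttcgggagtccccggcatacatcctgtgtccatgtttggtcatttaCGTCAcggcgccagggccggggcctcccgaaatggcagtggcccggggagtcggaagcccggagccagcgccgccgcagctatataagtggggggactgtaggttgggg
Jun, chr4:95052223-95052472, minus strand: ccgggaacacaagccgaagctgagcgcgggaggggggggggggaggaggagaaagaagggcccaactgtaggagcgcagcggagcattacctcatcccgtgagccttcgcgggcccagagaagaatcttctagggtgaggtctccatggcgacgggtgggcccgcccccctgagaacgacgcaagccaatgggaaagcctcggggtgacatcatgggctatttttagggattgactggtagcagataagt

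The TGACG core was found in 5 of the 8 promoters, those of Fos, Fosb, Junb, Egr2 and Egr4, and in 17.8% of 32851 RefSeq promoter windows of the same length. It was absent from the windows of Fosl2 and Jund, which were called higher after an exposure. It was present in those of Fosb and Junb, which were not called. Whether the motif goes with the calls was not tested. A CArG box was found in Egr2 alone among the 8, from 72 to 63 bases before the start, and in 1.47% of all windows. The EGR site, searched as GCGGGGGCG or GCGTGGGCG on both strands, was found in Fosb and Fosl2, against 3.06% of all windows. Neither the full cAMP response element TGACGTCA, which holds that core, nor the AP-1 site, searched as TGACTCA or TGAGTCA, was found in these 8 windows, against 1.55% and 4.46% of all windows. The RefSeq start used for Fosl2 lies 671 bases and that for Jund 1210 bases from the start of the principal GENCODE transcript, so these 2 windows are not directly before that start. Promoters of Egr1 and Egr3 were not searched, so the motif counts do not cover these members. The letters shown describe the 250 bases searched and say nothing about sites outside them or about binding in these samples.

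The basal order of the family was set by length-corrected levels in control libraries, as normalised read count per kb of exon. Egr1 stood at 662 ± 109 and Egr3 at 525 ± 35.5 per kb (SD, n = 4 for every value of this paragraph), and their ranges over the libraries overlapped. Jund followed at 339 ± 36, Egr4 at 211 ± 19.1, Jun at 99.8 ± 3.79 and Junb at 47.4 ± 10.8 per kb, each apart from its neighbours in every library. Of all genes of the table, 97% lay below Egr1 and 93.1% below Jund. The other 4 members were low. Fosl2 (18.9 ± 1.77) and Egr2 (16.7 ± 2.54) overlapped, as did Fos (11 ± 2.07) and Fosb (8.58 ± 2.48). The median gene had 39.3 per kb, and 18.7% of all genes lay below Fos.

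**Figure D1:**
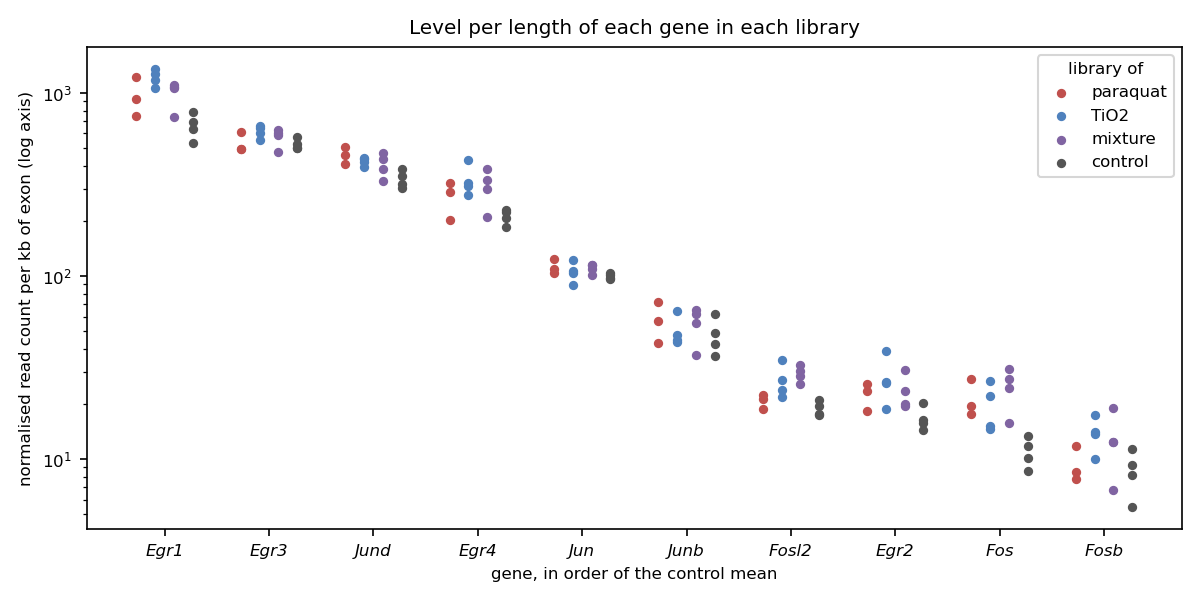
Normalised read count per kb of exon (log axis) of the 10 genes, ordered by their control mean, with a point for each library coloured by group (paraquat, TiO2, mixture, control). Egr1, Egr3, Jund and Egr4 lie above the highest Jun library (123 per kb) in all libraries, and Fosl2, Egr2, Fos and Fosb lie at 39 per kb or lower in all.

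The Fos family rose most clearly through Fos and Fosl2. Fos, the prototype AP-1 partner, was at 41.7, 45.7 and 63.9 in paraquat libraries, 34.2, 35.6, 52.2 and 62.7 in TiO2 libraries and 64.4, 72.7, 57.2 and 37 in mixture libraries, against 23.8, 27.9, 20.2 and 31.5 in control libraries. Every exposed library of each group was above every control library. The log2 fold change against control was 0.93 ± 0.24 (SE) after paraquat (limma adjusted p = 0.0163, 1.91-fold), 0.79 ± 0.22 after TiO2 (adjusted p = 0.0324, 1.72-fold) and 1.11 ± 0.22 after the mixture (adjusted p = 0.0118, 2.16-fold). These 3 comparisons share the 4 control libraries. Single libraries decided several of these calls. The paraquat call ended without paraquat 3, the deepest library (0.75, adjusted p = 0.0945), the TiO2 call without control 1 (adjusted p = 0.0881), control 3 (0.0901), TiO2 3 (0.111) or TiO2 4 (0.0903), and the mixture call without mixture 1 (0.0502) or mixture 2 (0.0546).

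Fosl2, which encodes the Fos-related antigen FRA2, was higher after TiO2 and after the mixture. It had 206, 181 and 217 in paraquat libraries, 230, 210, 338 and 262 in TiO2 libraries and 317, 276, 291 and 250 in mixture libraries, against 168, 204, 170 and 189 in control libraries. All TiO2 and all mixture libraries were above the highest control library, while the paraquat libraries overlapped control. The log2 fold change was 0.49 ± 0.12 for TiO2 (limma adjusted p = 0.016) and 0.63 ± 0.12 for the mixture (adjusted p = 0.00869). The mixture call held in all 17 alternatives run for it (adjusted p 0.000789 to 0.0419), and the TiO2 call ended without control 1 (0.45, adjusted p = 0.0606) or TiO2 3 (0.35, adjusted p = 0.0778). After paraquat the log2 fold change of Fosl2 was 0.14 ± 0.13, with a 95% interval of -0.13 to 0.41. The mixture minus paraquat difference of Fosl2 was 0.49 ± 0.13 with an unadjusted limma p of 0.000897, and its adjusted p was 0.165.

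Fosb did not pass the test in any comparison. It spanned 48.6 to 73.7 in paraquat libraries, 62 to 108 in TiO2 libraries and 42.2 to 118 in mixture libraries, against 34 to 71.2 in control libraries, so that all 3 exposed groups overlapped control. Its largest log2 fold change was 0.69 ± 0.26 after TiO2 (limma adjusted p = 0.123), which passed in a fit of TiO2 and control alone (0.0471). Fosb was also among the most variable members within groups, with a pooled SD of 0.45 on the log2 scale, above that of 98.1% of the 2444 genes within 1.5-fold of its level.

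**Figure D2:**
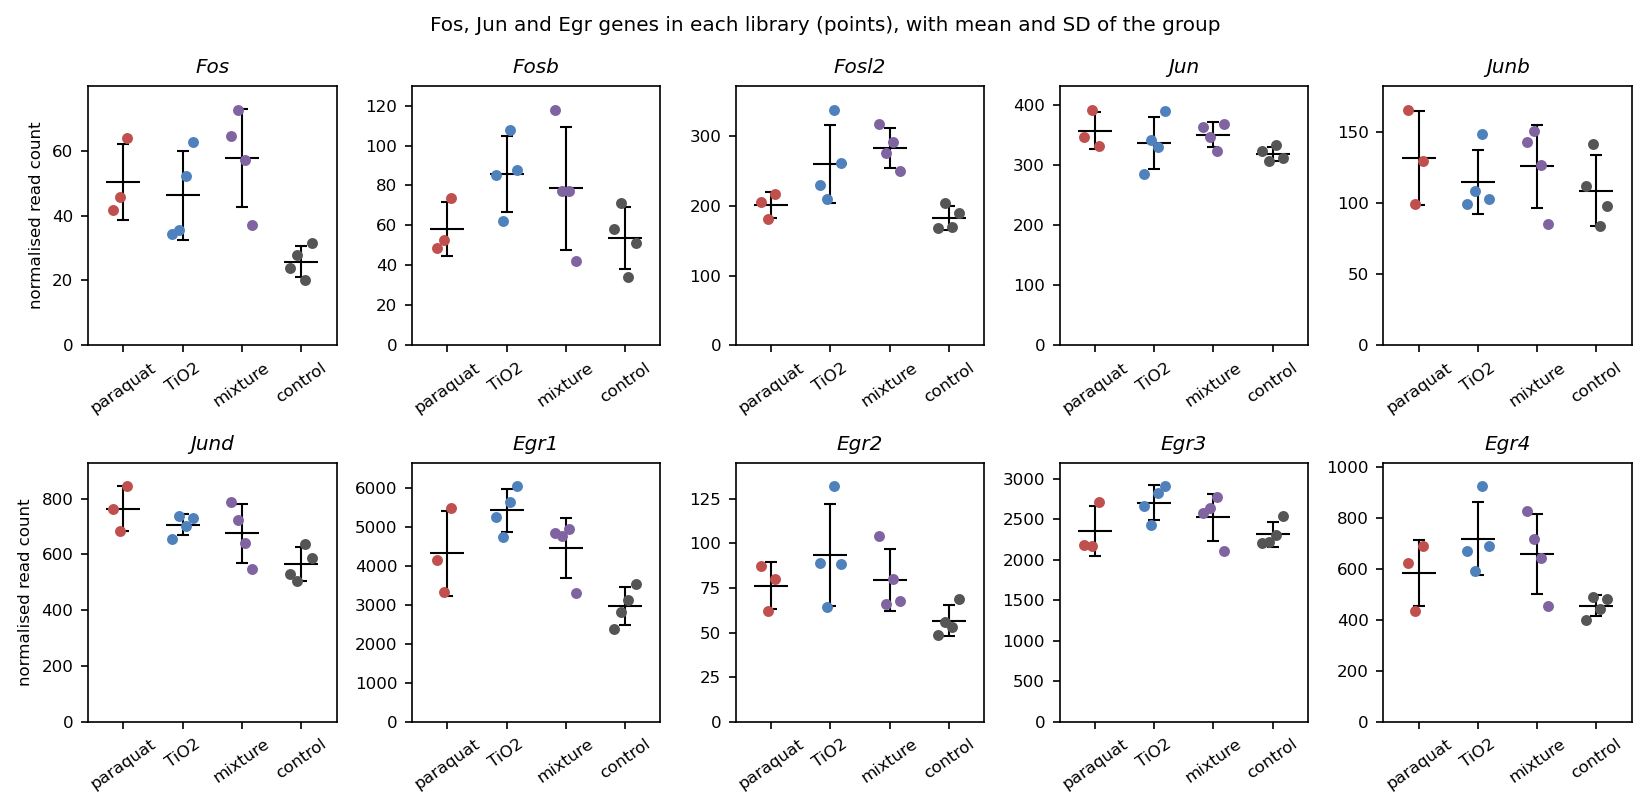
Normalised read count (linear axes from 0) of each of the 10 genes in every library, in the order paraquat, TiO2, mixture and control, with the mean and SD of each group as bars. The exposed libraries of Fos lie above the control maximum of 31.5, and those of Jun and Junb overlap control in each group.

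In the Jun family only Jund passed the test against control. Jund had 763, 684 and 845 in paraquat libraries, 654, 737, 702 and 729 in TiO2 libraries and 787, 724, 640 and 548 in mixture libraries, against 529, 506, 639 and 587 in control libraries. All paraquat and all TiO2 libraries lay above the highest control library, and the mixture libraries overlapped control. It rose after paraquat by 0.43 ± 0.11 on the log2 scale (limma adjusted p = 0.0137), a 1.35-fold change. After TiO2 its log2 fold change was 0.32 ± 0.10 (adjusted p = 0.0518) and after the mixture 0.25 ± 0.10 (0.287). The TiO2 difference of Jund passed with DESeq2 (0.035), with TMM factors (0.0498), with the replicate block (0.048), in a fit of TiO2 and control alone (0.0369) and without control 3 (0.034). The paraquat call ended without paraquat 3 (0.36, adjusted p = 0.0777). Jund is GC-rich, its transcript holding 67.15% G and C, and removal of a GC trend from each library brought its paraquat difference to 0.14 (adjusted p = 0.51) and its TiO2 difference to 0.12 (0.572). An antisense gene, Gm11175, overlaps Jund in the annotation, and whether the counting used strand is not given in the sources used here.

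Jun, which encodes c-Jun, and Junb, which encodes the inducible JunB, did not pass the test after any exposure. Jun spanned 332 to 392 in paraquat, 285 to 390 in TiO2 and 323 to 368 in mixture libraries, against 307 to 333 in control libraries. The 95% intervals of its log2 fold change ran from -0.04 to 0.37 for paraquat, -0.12 to 0.26 for TiO2 and -0.05 to 0.32 for the mixture, which leaves out a rise above 1.29-fold. Junb spanned 99.4 to 166 in paraquat, 99.6 to 149 in TiO2 and 85.3 to 151 in mixture libraries, against 84 to 142 in control libraries. Its intervals were wider, up to 1.62-fold after paraquat. Annotated neighbours on the other strand overlap both, Junos at Jun and Prdx2 at Junb.

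After TiO2, 3 of the 4 Egr genes rose, and after paraquat or the mixture 0 of the 4 passed the test. Egr1, the most abundant member and a gene of synaptic plasticity, had 4163, 3341 and 5502 in paraquat libraries, 5272, 4742, 5657 and 6061 in TiO2 libraries and 4845, 4770, 4970 and 3320 in mixture libraries, against 2376, 2829, 3127 and 3540 in control libraries. All TiO2 libraries exceeded all control libraries, while paraquat 2 and mixture 4 fell inside the control range. The log2 fold change after TiO2 was 0.88 ± 0.16 (limma adjusted p = 0.00569), a 1.84-fold rise, and the call held in all 17 alternatives run for it, with adjusted p of at most 0.035. After paraquat it was 0.53 ± 0.17 (adjusted p = 0.0638) and after the mixture 0.59 ± 0.16 (0.102). Egr1 passed after paraquat with edgeR (0.0231), with DESeq2 (0.0309) and without paraquat 2 (0.70, adjusted p = 0.0165) or control 4 (0.0465), and after the mixture with edgeR (0.0396), with DESeq2 (0.0381) and without mixture 4 (0.73, adjusted p = 0.0232).

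Egr2, known for its part in peripheral myelination, and Egr4 rose after TiO2 with less stable calls. Egr2 had 87.3, 61.9 and 79.7 in paraquat libraries, 89.2, 64.1, 132 and 88.5 in TiO2 libraries and 104, 66.2, 80.1 and 67.9 in mixture libraries, against 48.7, 55.7, 53.2 and 68.8 in control libraries. TiO2 library 3 was highest of all and TiO2 2, paraquat 2, mixture 2 and mixture 4 lay within the control range. Its log2 fold change after TiO2 was 0.68 ± 0.19 (limma adjusted p = 0.0281), and the call ended without control 1 (adjusted p = 0.0973), control 3 (0.0626), TiO2 1 (0.0555) or TiO2 3 (0.137). After paraquat it was 0.42 ± 0.20 (0.18) and after the mixture 0.47 ± 0.19 (0.269).

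Egr4 had 621, 436 and 691 in paraquat libraries, 668, 591, 924 and 689 in TiO2 libraries and 825, 715, 644 and 452 in mixture libraries, against 400, 490, 444 and 481 in control libraries. All TiO2 libraries lay above the highest control library, and paraquat 2 and mixture 4 were again inside the control range. The rise after TiO2 was 0.65 ± 0.18 on the log2 scale (limma adjusted p = 0.0456). That call ended without any single library except TiO2 2, with adjusted p of up to 0.159, and with the GC trend removed (0.44, adjusted p = 0.0891). Egr4 differed by 0.34 ± 0.20 after paraquat (0.289) and by 0.51 ± 0.18 after the mixture (0.237), where it passed without mixture 4 (0.68, adjusted p = 0.0374).

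Egr3, which acts in muscle spindle development and in neurons downstream of activity, did not pass the test after any exposure. It spanned 2171 to 2712 in paraquat, 2426 to 2907 in TiO2 and 2107 to 2772 in mixture libraries, against 2200 to 2537 in control libraries. The 95% intervals of its log2 fold change were -0.18 to 0.22 after paraquat, 0.04 to 0.41 after TiO2 (limma adjusted p = 0.133) and -0.07 to 0.31 after the mixture, with a highest upper limit of 1.33-fold.

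**Figure D3:**
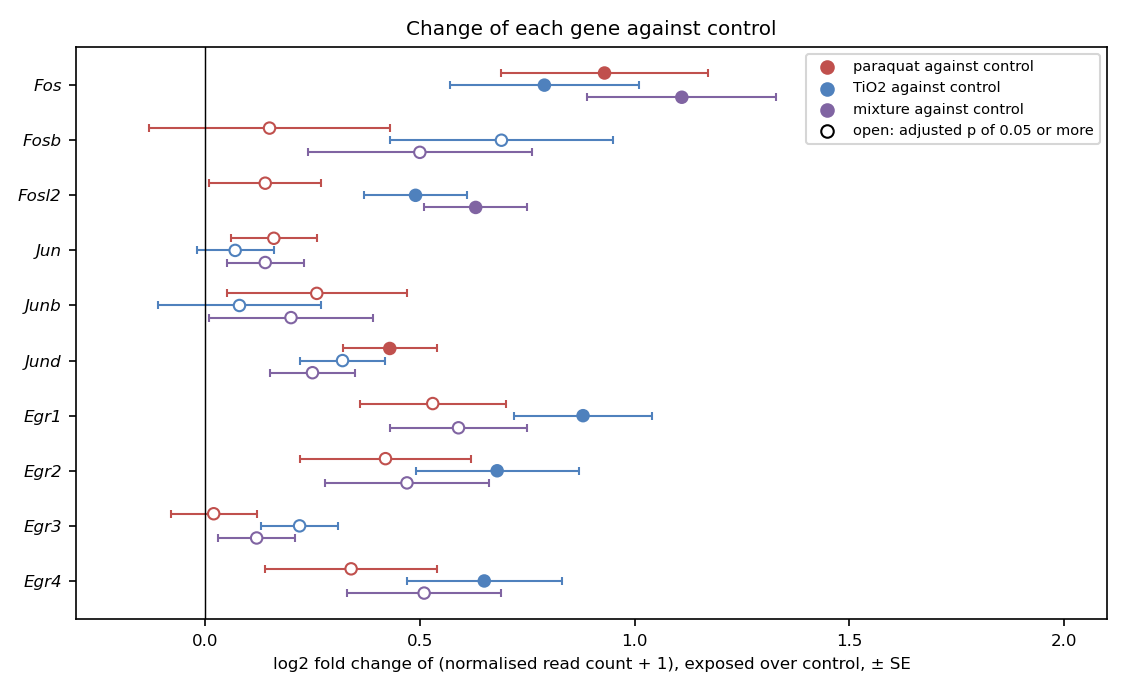
Log2 fold change of normalised read count + 1, exposed over control, with the standard error of the fit, for each gene after paraquat, TiO2 and the mixture; filled points passed an adjusted p of 0.05. All estimates are above 0, from 0.02 for Egr3 after paraquat to 1.11 for Fos after the mixture.

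Across the 10 members, 2 were called higher after paraquat (Fos and Jund) where 6.34% of all 15556 genes tested were called higher. After TiO2 5 were called higher (Fos, Fosl2, Egr1, Egr2 and Egr4) where the share of all genes was 4.3%, and after the mixture 2 (Fos and Fosl2) where it was 1.12%. Lower calls numbered 0 of the 10 members after each exposure, against 4.06% of all genes after paraquat, 2.1% after TiO2 and 0.0707% after the mixture. The median log2 fold change of the members was 0.3 after paraquat, 0.57 after TiO2 and 0.49 after the mixture, beside a median of -0.01 over all genes in each comparison. Every exposed library was above every control library for 2 members after paraquat, 5 after TiO2 (Fos, Fosl2, Jund, Egr1 and Egr4) and 2 after the mixture. Over all genes that separation held for 11%, 7.51% and 4.38%. In a test of any difference among the 4 groups 4 members were called, Fos (adjusted p = 0.0113), Fosl2 (0.00574), Jund (0.045) and Egr1 (0.0194), beside 6.78% of all genes.

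Set against each other, the exposures gave no call among the members. For the mixture against paraquat 0 of 10 members were called by limma, edgeR or DESeq2, and 1, Fosl2, had an unadjusted limma p under 0.05. For the mixture against TiO2 0 were called by any of the 3 tools and 0 had an unadjusted p under 0.05, and for TiO2 against paraquat 0 were called by any of the 3 and 2, Fosl2 and Egr3, had an unadjusted p under 0.05. Over all genes limma called 0.00643% (1 gene) for the mixture against paraquat and 0 for each of the other two comparisons. The differing calls against control are therefore not shown to differ between the exposures. Egr1, for example, was 0.35 ± 0.17 higher in TiO2 than in paraquat on the log2 scale (adjusted p = 0.801).

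For Jund and Egr1 the mixture difference was smaller than both single differences added together. The interaction, in which the log2 differences of paraquat and of TiO2 from control are both taken off that of the mixture, was -0.51 ± 0.15 for Jund (limma adjusted p = 0.0269) and -0.82 ± 0.24 for Egr1 (adjusted p = 0.0366). These were the 2 members called lower, beside 6.36% of all genes called lower, and 0 members were called higher, beside 5.41%. Fosl2 had an interaction of 0.00 ± 0.18, so that its mixture value was close to the sum, with a 95% interval of -0.36 to 0.37. Both calls ended with the GC trend removed, at -0.08 for Jund (adjusted p = 0.8) and -0.56 for Egr1 (0.191). The Jund call ended without control 1 (0.0564), paraquat 1 (0.0627), paraquat 3 (0.0785), TiO2 2 (0.0542) or mixture 4 (0.0645), and that of Egr1 without control 1 (0.0613), control 2 (0.0602), paraquat 1 (0.0797), paraquat 3 (0.078), TiO2 3 (0.0917), TiO2 4 (0.0612) or mixture 2 (0.0518).

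Within groups most members other than Jun varied together from library to library. The median log2 difference of the 10 members from the control mean was 0.45, 0.08 and 0.50 in paraquat libraries 1 to 3, 0.37, 0.23, 0.92 and 0.56 in TiO2 libraries 1 to 4 and 0.76, 0.53, 0.51 and 0.09 in mixture libraries 1 to 4, against -0.09, 0.05, -0.05 and 0.07 in control libraries 1 to 4. Paraquat 2 and mixture 4 were thus near control, while TiO2 3 and mixture 1 were the highest. After removal of the group means, 38 of the 45 pairs of members had a Pearson correlation above 0 over the 15 libraries, with a median of 0.56. The highest was 0.92 for Egr1 with Egr3, followed by 0.87 for Fosl2 with Egr2. All 7 pairs below 0 held Jun, the lowest being -0.32 for Jun with Egr4, and Jun had 0.11 with Fos and 0.07 with Jund. The values of a pair share their libraries and depth, and these correlations are a description.

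**Figure D4:**
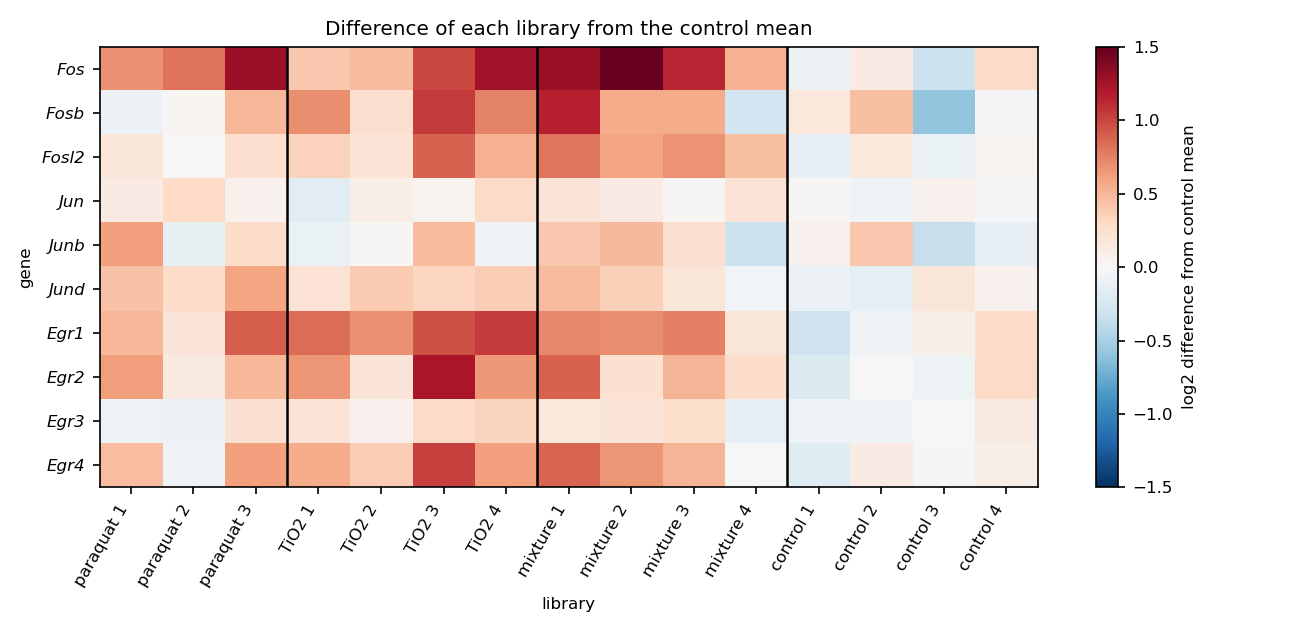
Log2 difference of each gene from its control mean in each library, by group in the order paraquat, TiO2, mixture and control (red higher, blue lower). Paraquat 3, TiO2 2, TiO2 3 and mixture 1, 2 and 3 have all 10 genes above the control mean, and paraquat 2 and mixture 4 have 6 of 10.

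Outside the family, genes with the most similar pattern to the members' mean z-score over the 15 libraries, among 11602 genes with a mean of at least 50, included Crtc3, a coactivator of CREB (Pearson r = 0.905), the MAX-binding repressor Mnt (0.903), the ERK phosphatase gene Dusp5 (0.873) and the lincRNA 5033430I15Rik (0.872). With the group means removed the closest included Midn (0.871), 5033430I15Rik (0.852), Mnt (0.851) and Aplp1 (0.841). Dusp5 averaged 156, 170 and 155 in paraquat, TiO2 and mixture, against 112 in control.

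Among the signalling genes upstream of Fos and Egr, a few also passed the test. Of 32 tested activators of their transcription, 6 rose and 2 fell after paraquat, 6 rose after TiO2 and 1 rose after the mixture, with medians of 0.12, 0.08 and 0.08. The shares called among all genes were 6.34% higher and 4.06% lower after paraquat, 4.3% higher after TiO2 and 1.12% higher after the mixture, and the counts of 2 lower after paraquat and 1 higher after the mixture were near them. Camk4, the calcium-dependent kinase that acts on CREB, was called after all 3 exposures and averaged 1230 ± 132 (SD, n = 3) in paraquat, 1380 ± 78.1 (n = 4) in TiO2 and 1230 ± 196 (n = 4) in the mixture, against 695 ± 165 (n = 4) in control. Its log2 fold changes were 0.85 ± 0.14, 1.01 ± 0.13 and 0.85 ± 0.13 (limma adjusted p = 0.00147, 0.000128 and 0.00257). Elk1, the SRF partner, rose by 0.50 ± 0.09 after paraquat and 0.39 ± 0.08 after TiO2, and Mapk3, which encodes the ERK1 kinase, by 0.32 ± 0.08 and 0.29 ± 0.08. After paraquat Elk4 (0.43) and Camk2a (0.32) also rose and Mef2a (-0.37) fell. After TiO2 Elk3 (0.55), Crtc3 (0.39) and Mef2d (0.28) rose. Elk3 was also called higher after paraquat (0.50 ± 0.15, limma adjusted p = 0.034).

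Among other early response genes a minority was called. Of 51 tested, 5 rose and 2 fell after paraquat, 5 rose after TiO2 and 4 rose after the mixture, with medians of 0.16, 0.07 and 0.13. Over all genes 6.34% rose and 4.06% fell after paraquat, 4.3% rose after TiO2 and 1.12% rose after the mixture, so the paraquat counts were near the share of all genes. Per1, a clock gene with early induction, rose by 0.46 ± 0.12 after paraquat and 0.61 ± 0.11 after TiO2, and Btg2 (0.72), Plk3 (0.64), Arl4d (0.48) and Vgf (0.35) rose and the signalling regulator Rgs2 (-0.67) fell after paraquat. After TiO2 Dusp5 (0.59), Arl4d (0.47), the neuropeptide precursor Vgf (0.40) and Errfi1 (0.41) rose. After the mixture the nuclear receptor gene Nr4a3 (0.90 ± 0.18, adjusted p = 0.0237), the neurotrophin Bdnf (1.13 ± 0.28, 0.0438), Trib1 (0.50) and Nptx2 (0.49) rose. Arc and Npas4 were picked from this list after their values were seen. Arc, the activity-regulated synaptic gene, missed the threshold with 0.73 ± 0.23 after paraquat (limma adjusted p = 0.0623), 0.57 ± 0.21 after TiO2 (0.127) and 0.56 ± 0.21 after the mixture (0.29). Npas4, a strictly activity-dependent factor, had 0.00 ± 0.40, -0.09 ± 0.37 and -0.15 ± 0.37.

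Among AP-1 relatives, the AP-1 repressor Jdp2 rose after TiO2 (0.63 ± 0.18, limma adjusted p = 0.0394), and 0 of the 7 tested were called after the mixture. The Egr corepressors Nab1 and Nab2 were not called after any exposure. Their log2 fold changes lay between -0.23 and 0.10.

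Markers of cortical glutamatergic neurons, cells that lie next to the striatum, also differed between libraries. Of 13 listed, 11 were in the table and none of these was at 0 in any library. Their summed normalised read count was 3342 to 7113 in paraquat, 2997 to 4315 in TiO2 and 4284 to 6015 in mixture libraries, against 2438 to 3760 in control libraries, so that the mixture libraries did not overlap control. Lamp5 was the largest single part of the mean sum in each group. It averaged 1550 in paraquat, 1630 in TiO2, 1600 in mixture and 1650 in control libraries, so changes of the other markers move the sum less. Of the 11, 3 were called higher after paraquat (Cux2, Rasgrf2 and Nrn1) and 0 after TiO2 or the mixture, at medians of 0.72, 0.29 and 1.34. In paraquat and mixture the library with the highest cortical sum, paraquat 2 (7113) and mixture 4 (6015), was the library with the lowest median of the members. In TiO2 the library with the highest cortical sum, TiO2 3 (4315), had the highest median of the members. Their part in the members' changes was not tested. In bulk tissue, fewer cells of a type and less RNA per cell cannot be told apart.

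**Figure D5:**
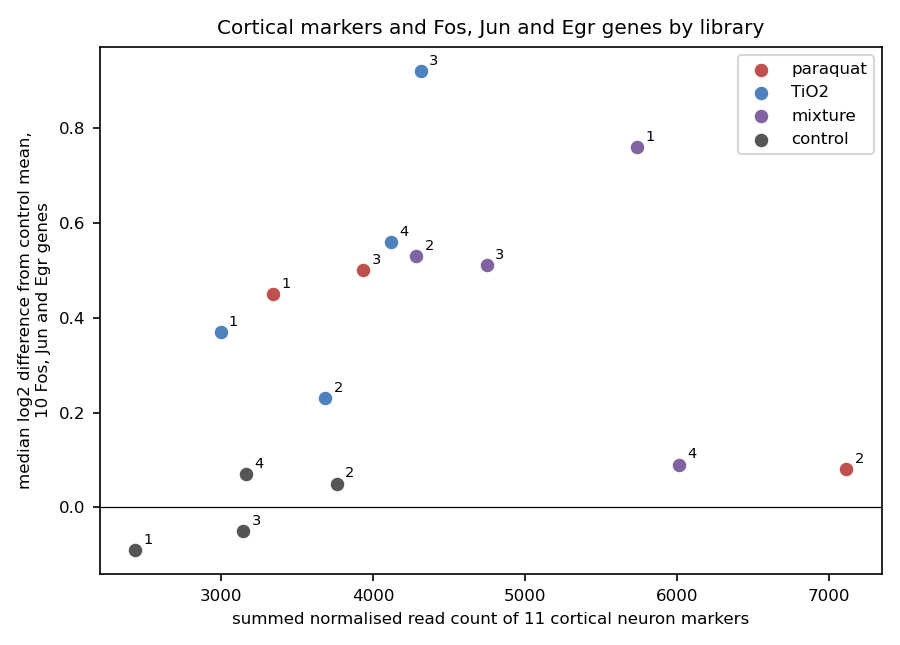
Summed normalised read count of 11 cortical neuron markers (horizontal) and median log2 difference of the 10 Fos, Jun and Egr genes from the control mean (vertical), with a point for each library and its number. Paraquat 2 and mixture 4 have the highest marker sums, 7113 and 6015, and medians of 0.08 and 0.09.

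Striatal projection neuron markers summed to 64822 to 72602 in paraquat, 69618 to 77128 in TiO2 and 65020 to 75717 in mixture libraries, against 76054 to 82174 in control libraries. All paraquat and all mixture libraries were thus below the lowest control library, while TiO2 overlapped control. Of the 14 markers, 6 were called lower after paraquat, 2 after TiO2 and 0 after the mixture. The shares of all genes called lower were 4.06%, 2.1% and 0.0707%. Oligodendrocyte markers were higher after paraquat, at 83603 to 97042, against 38041 to 56836 in control, with 7 of 8 called, and spanned 52309 to 82308 after TiO2 with 1 called and 45330 to 78735 after the mixture with 0 called. Sums of microglial, endothelial, blood, choroid plexus and thalamic markers overlapped control in all 3 exposed groups. Among these, 1 microglial gene (Tmem119, after TiO2) and Slc17a6 of the thalamic list (after paraquat) were called higher and Rora of that list (after paraquat) lower. Slc17a6 averaged 55.3 in paraquat, 18.7 in TiO2 and 52.4 in mixture libraries, against 13 in control libraries, and was not called after TiO2 or the mixture. Tcf7l2 and Lef1 of the same list were not called after any exposure.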

How the data were processed

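The authors deposited 1 table of normalised signal for 15569 genes in 15 libraries, which is the read count of each gene divided by a size factor for the library. This was read from the values, which in every library are whole multiples of 1 step, 0.658453 to 1.08477, within 0.001. Whole reads count as recovered for 11 libraries, since in paraquat 1, TiO2 3, TiO2 4 and mixture 1 the step is too near 1 to tell. Per the submitters' processing notes, the mm10 build, DESeq2 2.1.8.3 and Bowtie2 2.3.2.2 were used. For the read counter, annotation and strand setting, the answer is not given in the sources used here. Per the labels' protocols, sequencing used a NextSeq500 and a Lexogen SENSE kit for total RNA.

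All 15569 symbols matched GENCODE M21 (GRCm38, the mm10 assembly), which gave loci, exon lengths and GC content. Promoter sequences are from RefSeq on GRCm38.p6. The main test was limma 3.58.1 (R 4.3.3) on log2(value + 1) with trend and robust options, in 1 fit of all 15 libraries with a mean per group, on the 15556 genes kept by filterByExpr of edgeR 4.0.16, with Benjamini-Hochberg adjustment over those genes and calls at an adjusted p under 0.05. Fold changes on this scale understate changes of low genes. Alternatives were other pseudocounts, no filter, edgeR and DESeq2 1.42.0 on recovered reads, TMM factors, removal of a GC trend per library by a smoothing spline, fits of only the groups compared, a replicate block and each library left out. The fit was tested on simulated data. Every member was named in each comparison, and of each pathway list at most 6 called genes per exposure; the 5 genes of most similar pattern were named likewise, and results of a few genes are not reported here. The members and lists were chosen with earlier results of these data known. Read depth bears on counting error alone, as no molecular identifiers mark independent molecules.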

Additional observations from a re-analysis of the deposited data

Results flagged for a closer look

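The Egr1 value of 3320 in mixture library 4 was far from the 4770 to 4970 of the other mixture libraries. Of the 30 groups of 4 libraries tested this way for the members it was the only one flagged. Chance flags about 1 in 20 such groups, so 1 flag among 30 is no more than chance gives. The same library also had the lowest mixture values of Fos, Fosb, Fosl2, Junb, Jund, Egr3 and Egr4.

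For 2 members the effect of the mixture differed from the sum of the single exposures by the test of the interaction. The value was -0.51 for Jund and -0.82 for Egr1 on the log2 scale, and both calls ended once the trend with GC content was taken out.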

How the results depend on the processing

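For single members, 1377 of 1450 recomputed results kept their side of the threshold, 54 fell short of it and 19 newly passed it. Most of these results were not called in the main fit, and staying uncalled counts as kept. All 54 that fell short were called results. For example, Jund in the test of any difference passed in 12 of 23 alternatives, and Egr4 after TiO2 in 8 of 17. Of the called differences 0 changed sign, and the test of any difference has no sign. The Egr1 rise after TiO2 and the Fosl2 rise after the mixture passed in every alternative run. Removal of the GC trend left 1 member called after paraquat (2 without it), 0 in the interaction (2) and 2 in the test of any difference (4), and 1117 genes called in the interaction (1832). Over all genes, the mixture against control called 185 genes, 300 with DESeq2 and 290 with the replicate block, and the test of any difference 1055, or 1694 with DESeq2. The mixture against paraquat called 1 gene, against 138 with DESeq2, 3 with TMM, 16 with the GC trend removed and 8 in a fit of those groups. The mixture against TiO2 called 0, against 55 with DESeq2, 1 with the GC trend removed and 5 with the replicate block, and TiO2 against paraquat 0, against 15 with DESeq2 and 3 with the replicate block.

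With each library left out in turn, the members called were 0 (without paraquat 3) to 3 after paraquat, 1 (without control 1 or TiO2 3) to 5 after TiO2, 1 (without mixture 1 or 2) to 4 (without mixture 4) after the mixture, 0 to 2 in the interaction and 1 (without control 1; 2 without control 2) to 5 in the test of any difference. All genes called were then 665 (without paraquat 3) to 1754 for paraquat, 467 (without TiO2 3) to 1397 for TiO2, 52 (without mixture 3) to 164 for the mixture, 882 (without paraquat 1) to 2313 for the interaction, 426 (without control 1) to 1266 for any difference, 0 to 3 for the mixture against paraquat, 0 to 14 for the mixture against TiO2 and 0 to 11 for TiO2 against paraquat. The cause of these shifts was not tested.

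Libraries with the same number share only that number: their deviations from the group means correlated at -0.186 to 0.271 over 21 pairs, and 4 of 15 libraries correlated best with their own number. With the replicate block, 2 members were called after paraquat, 5 after TiO2 and 2 after the mixture, Jund entering (adjusted p = 0.048) and Egr4 leaving (0.0545) the TiO2 calls. Depth limits Fos most, with as few as 19 reads in a library.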
